A study of Homo sapiens with 6 samples.

Results

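The HOX genes of the 4 human HOX clusters were followed in RNA-seq of H1650 cells, control against shSETD2. Every gene of the deposited expression table whose symbol begins with HOXA, HOXB, HOXC or HOXD was taken, which gave 39 of 15897 listed genes, 37 of them protein-coding and 2 antisense transcripts of the HOXC cluster. H1650 is a human lung adenocarcinoma cell line. The control libraries carry the genotype label wild type, and the shSETD2 libraries come from cells in which SETD2, the histone H3 lysine 36 methyltransferase, was targeted with short hairpin RNA. Per the study's methods, stable lines were made with lentivirus and several hairpin constructs against SETD2 were cloned. Whether a replicate number stands for a construct, a culture or a repeat library is not stated, so p-values measure only the spread between these libraries, which may be technical. Each group has 3 libraries.

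HOX genes encode homeodomain transcription factors that give cells positional identity along the body axis. They lie in 4 clusters, and within a cluster the genes are numbered from the 3′ to the 5′ end. Genes with low numbers are used early and towards the head, and genes with high numbers later and towards the tail. Genes with the same number in different clusters are paralogs that arose by duplication of an ancestral cluster. Many adult epithelia and cancer cell lines keep a combination of HOX genes that reflects where their tissue came from. HOX proteins bind DNA together with TALE homeodomain partners of the PBX, MEIS and PKNOX families.

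HOX expression was lower in the shSETD2 libraries as a whole. By ratio of summed FPKM the drop was largest at the 5′ (posterior) end of HOXA, HOXB and HOXD, but not of HOXC. Levels are FPKM, fragments mapped, scaled to transcript length and library size, as deposited. The FPKM of the 39 genes summed to 288.8, 283.3 and 273.9 in the control libraries and to 76.8, 73.0 and 81.1 in the shSETD2 libraries, a ratio of the means of 3.66. HOXB9, HOXA5 and HOXD13 were the highest HOX genes in the control libraries, in this order. In the shSETD2 libraries the posterior genes HOXD13 and HOXB9 were listed at 0 and near 1 FPKM, whereas HOXB2, an anterior gene, was the highest HOX gene there. Genes were tested on log2(FPKM + 1) with limma, with a filter on the mean FPKM of all 6 libraries of at least 0.5 and an adjusted p under 0.05 as the threshold. A log2 fold change is the shSETD2 mean minus the control mean on that scale. For genes with few fragments this scale makes the change look smaller than it is. In bulk libraries, fewer cells that use a gene and less RNA of it per cell cannot be told apart.

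**Figure D1:**
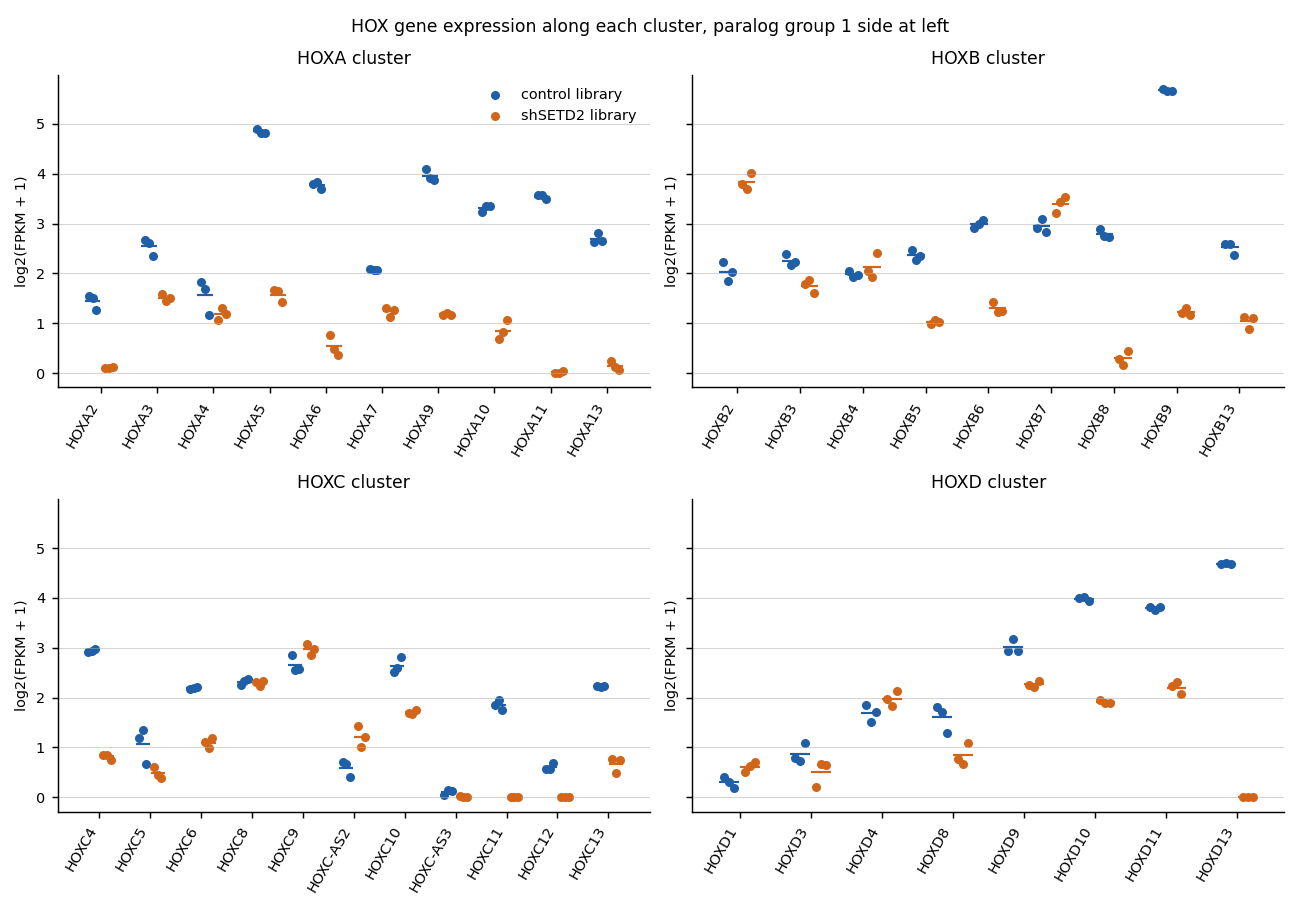
Each panel plots log2(FPKM + 1) of HOX genes of 1 cluster, ordered from the 3′ (low number) to the 5′ end, with 1 point per library (blue, control; orange, shSETD2) and a short line at the group mean. HOXB9, HOXA5 and HOXD13 stand highest in the control libraries, and HOXB2 and HOXB7 stand higher in the shSETD2 libraries.

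SETD2 itself did not separate the groups. Its FPKM was 18.0, 10.2 and 17.6 in the control libraries and 8.97, 8.09 and 12.2 in the shSETD2 libraries, so control library 2 lay below shSETD2 library 3. On the log2 scale the difference for SETD2 was -0.58 with an SE of 0.24, which did not pass the threshold in limma (adjusted p = 0.0641). Without control library 2 it was -0.83 (limma adjusted p = 0.00648), and without shSETD2 library 3 it was -0.73 (limma adjusted p = 0.0418). SETD2 thus does not settle the labels, and whether the groups differ in more than the hairpin, down to the cell line itself, was not tested. The groups are therefore named by their labels throughout, and rose, fell and lost mean only higher or lower in the libraries labelled shSETD2.

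The libraries of different groups were far apart over all genes, with Pearson correlations of log2(FPKM + 1) of 0.701 to 0.707 between groups against 0.982 to 0.990 within them. The labelled tissue was checked against marker lists. Of 10 lung epithelial markers, 2 are listed in the table, and both were lower in the shSETD2 libraries, where NKX2-1, the lung lineage transcription factor, was listed at 0 in all 3. The surfactant genes are not among the listed genes, and the summed FPKM of the listed lung markers was 3.25 to 4.77 in control and 0.384 to 0.529 in shSETD2 libraries. Of 6 epithelial markers 5 are listed, with sums of 13.99 to 15.9 and 401 to 453.5, and 3 keratin genes were higher and CDH1 was lower. EPCAM, under the filter, was also lower in the shSETD2 libraries, at 0.220 ± 0.0712 against 0.710 ± 0.124 FPKM (SD, n = 3 each). All 10 markers of renal epithelium and embryonic kidney are listed, and their sums were 27.8 to 31.2 and 60.5 to 71.7. Of these, 5 were higher in the shSETD2 libraries (PAX2, PAX8, LHX1 and WT1 among them) and 5 lower, of which SALL1, SIX2 and EYA1 were listed at 0 there. Of 6 neuronal markers 3 are listed, with sums of 57.5 to 62.7 and 15.4 to 16.9, NEFL and NEFM were listed at 0 in the shSETD2 libraries, and TUBB3 was higher there, at 16.1 ± 0.795 against 1.32 ± 0.610 FPKM (SD, n = 3 each). Of 6 mesenchymal markers, all listed, sums were 96.4 to 111.0 and 154.9 to 165.6, and 2 were higher and 2 lower. Apart from ZEB1, whose libraries overlapped, the listed markers were without overlap between the groups, but in both directions. Such a separation was common among all genes tested, with 53% higher in all control and 27.9% higher in all shSETD2 libraries. Lack of overlap alone therefore does not set these markers apart. Some of their changes were large, in both directions. Mean FPKM went from 0.0208 in control to 81.9 in shSETD2 libraries for KRT7 and from 0.0172 to 30.8 for PAX8. For NEFM it went from 37.8 to a listed 0. These were picked by size, and the part of the markers in the HOX differences was not tested.

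Of the 39 HOX genes, 36 passed the filter, and 31 of these passed the threshold. In the shSETD2 libraries 27 of 36 were lower (75%), beside 51.8% of all 14068 genes tested, and 4 of 36 were higher (11.1%), beside 26.8%. The control libraries all lay above the shSETD2 libraries for 28 of the 36, against 53% of all genes tested, and all below them for 3, against 27.9%. A drop of 1 or more on the log2 scale that passed the threshold was seen for 20 of the 36 (55.6%), and for 18.7% of all genes. An FPKM of 1 or more in every control library with under 0.1 in every shSETD2 library was found for 4 of the 36, namely HOXA2, HOXA11, HOXC11 and HOXD13, and for 4.45% of all genes. Of the 36 tested, 9 had a shSETD2 mean under 0.5 FPKM and none had a control mean that low, so part of them passed the filter through the control libraries. The same shares over all genes tested are not given, so this contrast does not set HOX genes apart.

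The median log2 fold change of the tested HOX genes was -1.21, with a range from -4.69 to 1.80. Over all genes tested the median was -0.29, so the HOX median lay 0.92 below it. Scaling the libraries to the median ratio moved the median of all genes to -0.01 and that of the HOX genes to -0.98, and quantile normalization gave -0.11 and -0.82. Under median ratio scaling the share of higher genes among all called genes rose from 34.1% to 49.6%, and that among called HOX genes from 12.9% to 22.6%. With this scaling 24 HOX genes were lower and 7 higher. HOX genes with a mean of 1 FPKM or more numbered 34 in control and 23 in shSETD2 libraries, and those with 10 FPKM or more 8 and 1.

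**Figure D2:**
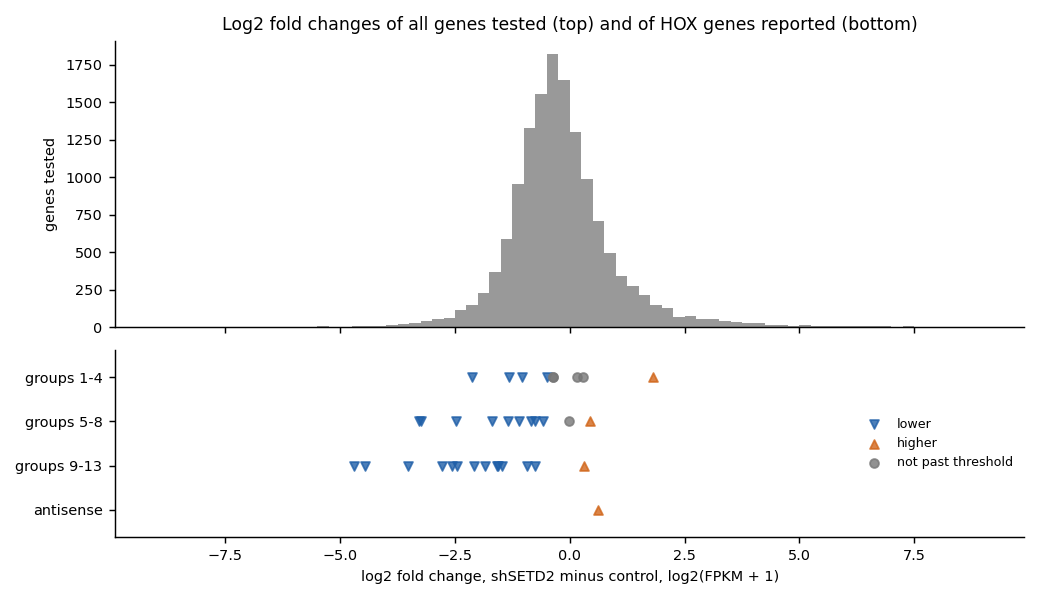
The upper panel is a histogram of the log2 fold change (shSETD2 minus control) of all 14068 genes tested, and the lower panel shows the HOX genes reported here by paralog groups, with triangles for genes past the threshold and grey circles for the others. Most HOX genes lie left of the peak of all genes, and the points of groups 9 to 13 reach furthest to the left, to -4.69.

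HOXD13, the gene that fell most, is shown by the 250 bases before the start of its GENCODE canonical transcript in GRCh37, read 5′ to 3′ on the gene's strand. Capitals mark matches to any of 4 motifs, searched on both strands. The box that positions transcription was searched as TATAAA. The motif bound by CDX and posterior HOX proteins was searched as TTTATG, and the one bound by MEIS proteins as TGACAG. The composite of PBX with HOX proteins was searched as TGATNNAT.
HOXD13, chr2:176957199-176957448, plus strand: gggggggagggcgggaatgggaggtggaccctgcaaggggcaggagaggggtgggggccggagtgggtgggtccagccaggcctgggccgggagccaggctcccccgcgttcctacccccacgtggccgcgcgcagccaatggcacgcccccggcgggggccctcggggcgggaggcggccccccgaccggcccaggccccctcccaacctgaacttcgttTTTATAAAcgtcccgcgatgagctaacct
The deposited start of HOXD13 lies within its gene downstream of this transcript's start, and the table's annotation is another release.

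The HOXD13 window holds TATAAA on both strands, with the match on the gene's strand 27 bases before the transcript start. Among the windows of all 39 HOX genes, TATAAA is found in 6 (15.4%), against 5.79% of 13779 windows of tested genes, and TTTATG in 7 (17.9%) against 4.86%. TGATNNAT is found in 6, against 2.98%, and TGACAG in 4 (10.3%) against 10.4%. The CDX type and composite letters can share bases. The HOX windows had a median GC content of 58%, against 65.6% over all tested genes, and a median ratio of observed to expected CpG of 0.761 against 0.828. The 20 HOX genes that fell by 1 or more on the log2 scale had a median GC content of 54.6%. The other 19, which include the 3 untested genes, had one of 60%. A match is a run of letters, not a bound site.

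Summed over the clusters, the ratio of control to shSETD2 rose from anterior to posterior genes. The summed control level rose in the same order, so position and control level cannot be told apart here. Anterior genes (paralog groups 1 to 4) summed to 31.3 ± 2.42 FPKM in control and 28.7 ± 2.63 in shSETD2 libraries (SD, n = 3 each), and of 10 tested 5 were lower and 1 higher. That share of lower genes is near the 51.8% of all genes tested, of which 26.8% were higher. Central genes (groups 5 to 8) summed to 78.3 ± 2.43 and 22.4 ± 0.968, and 9 of 11 were lower and 1 higher. Posterior genes (groups 9 to 13) summed to 171.8 ± 2.81 and 24.5 ± 0.815, and 13 of 14 were lower and 1 higher. The ratio of control to shSETD2 thus went from 1.09 through 3.50 to 7.01. The anterior sums overlapped between the groups, whereas the central and posterior sums did not. By ratio of sums, the order from anterior to posterior held within HOXA (2.32, 11.5 and 18.1). It also held within HOXB (0.515, 1.94 and 22.9) and HOXD (0.849, 2.57 and 5.86). In HOXC it did not, with ratios of 8.71 for HOXC4, the only anterior gene, 1.60 and 1.79. On the log2 scale the median changes kept the order in HOXB and HOXD but not in HOXA (-0.76, -3.23 and -2.67). Some of these sums rest mainly on 1 gene. HOXD8 is the only central HOXD gene, and HOXB9 gave 50.2 of the 55.0 FPKM of posterior HOXB in control libraries. The anterior HOXB ratio follows HOXB2, while HOXB3 fell.

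**Figure D3:**
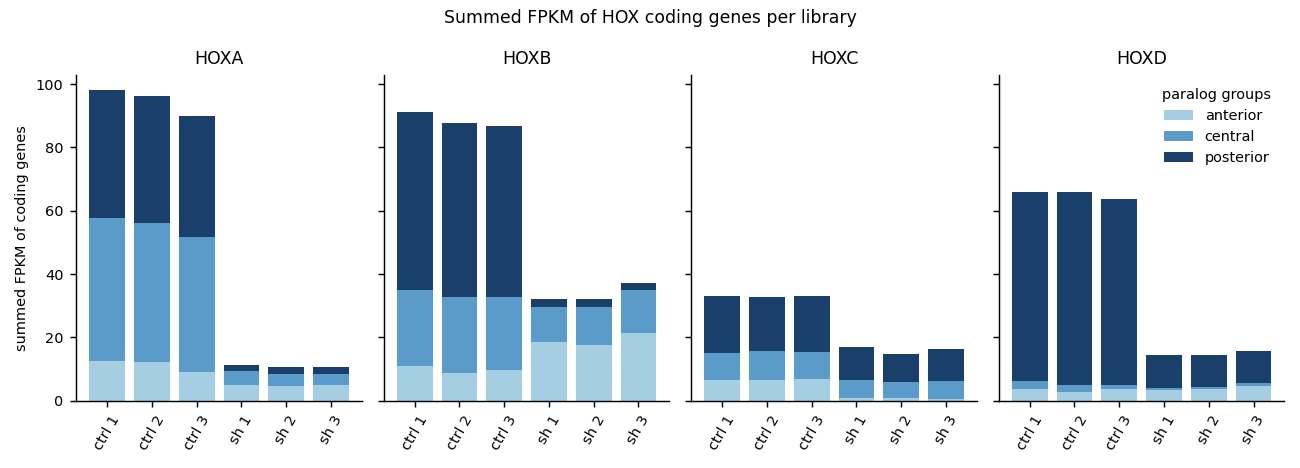
Stacked bars give the summed FPKM of the coding HOX genes of each cluster in each library (ctrl, control; sh, shSETD2), split into anterior (groups 1 to 4), central (5 to 8) and posterior (9 to 13) genes. The posterior share fills most of the HOXD and HOXB bars in control libraries, and in the shSETD2 libraries the HOXB bars are mostly anterior and central.

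Across 35 tested coding genes, Spearman's rho of the log2 fold change with the paralog group was -0.51. It was -0.89 over 7 HOXD genes, -0.70 over 9 HOXB genes, -0.56 over 11 HOXA genes and -0.02 over 8 HOXC genes. These genes share libraries and neighbours, so the values are descriptions. On log2(FPKM + 1) a gene with a low control level can fall only a little. Over all clusters the control level rose with the paralog group (rho 0.50), with 0.93 in HOXD, 0.72 in HOXB and 0.53 in HOXA. Within HOXC it did not (-0.14). Paralog group and control level can therefore not be told apart as correlates of the log2 fold change. The shSETD2 level did not rise (rho -0.23), with -0.49 in HOXA, -0.60 in HOXB, -0.10 in HOXC and 0 in HOXD. The levels in the 2 groups were hardly related to each other over the same genes (rho 0.10). By cluster that rho ran from -0.35 in HOXB to 0.67 in HOXC.

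**Figure D4:**
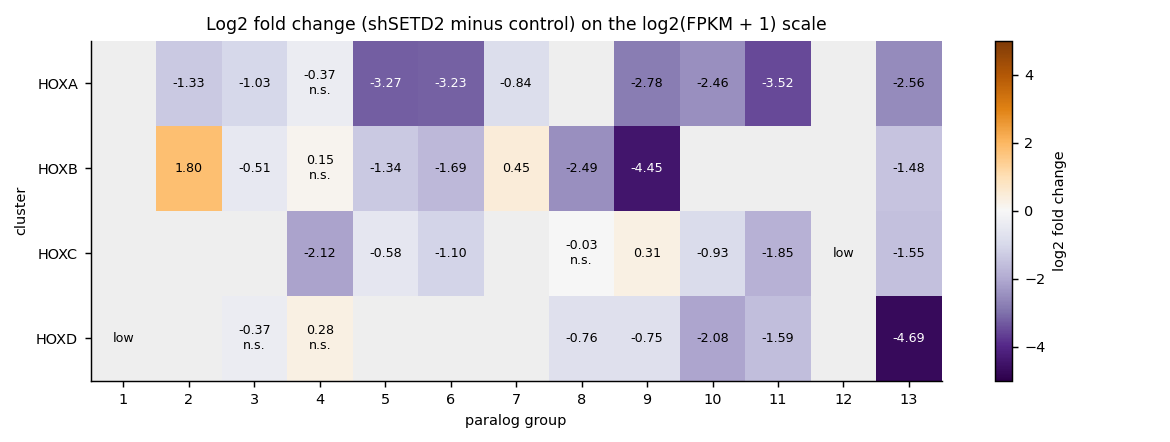
Each cell gives the log2 fold change of 1 coding HOX gene, where reported, by cluster (rows) and paralog group (columns), purple for lower and orange for higher in shSETD2 libraries. Cells marked n.s. did not pass the threshold, those marked low were under the filter, and no value is shown in empty cells. Values below -3 lie in paralog groups 5, 6, 9, 11 and 13, and the orange cell of HOXB2 at 1.80 is the only one above 1.

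The HOXA cluster (chromosome 7, minus strand) lost most of its expression. Its 11 genes summed to 94.8 ± 4.34 FPKM in control and 10.9 ± 0.462 in shSETD2 libraries (SD, n = 3 each), a ratio of 8.69. Of the 11, 10 were lower, beside 51.8% of all genes tested. HOXA5, a gene needed for lung and airway development, was the leading gene of the cluster in both groups. Its FPKM was 28.8, 27.4 and 27.3 in control and 2.17, 2.12 and 1.67 in shSETD2 libraries. The groups were far apart, and the log2 fold change was -3.27 with an SE of 0.08 (limma adjusted p = 1.68e-07).

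HOXA11, which acts in limb, kidney and uterus development, had the widest gap of the cluster. It stood at 10.8, 10.8 and 10.2 FPKM in the control libraries and was listed at 0, 0 and 0.0306 in the shSETD2 libraries. The change was -3.52 on the log2 scale with an SE of 0.05 (limma adjusted p = 3.88e-08). In the annotation 27.2% of its exon bases lie opposite the antisense gene HOXA11-AS. The library kit keeps strand, but whether the counting used it is not stated. HOXA6 had 12.8, 13.3 and 11.9 FPKM in control against 0.708, 0.394 and 0.284 in shSETD2 libraries, and its log2 fold change was -3.23 with an SE of 0.11 (limma adjusted p = 8.92e-07). For this gene 39.3% of exon bases lie opposite HOXA-AS3, and for HOXA7 62.5% do.

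The leukaemia-associated gene HOXA9 fell from 16.1, 14.03 and 13.6 FPKM to 1.24, 1.31 and 1.23, with a log2 fold change of -2.78 and an SE of 0.07 (limma adjusted p = 2.63e-07). HOXA13, a gene of the distal limb and hindgut, fell from 5.18, 6.06 and 5.28 FPKM to 0.176, 0.0952 and 0.0455, with a log2 fold change of -2.56 and an SE of 0.08 (limma adjusted p = 5.26e-07). In both genes the lowest control value was far above the highest shSETD2 value. HOXA10, which lies between HOXA9 and HOXA11, went from a mean of 8.96 ± 0.485 to 0.816 ± 0.240 FPKM (log2 fold change -2.46). HOXA9 and HOXA10 share 15.9% and 9.93% of their exon bases on the same strand with a readthrough gene model that joins them, so the division of reads among these 3 is uncertain.

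At the anterior end of the HOXA cluster control levels were low, and the size of a change depends on the scale. HOXA2, a hindbrain and second-arch gene, was at 1.92, 1.85 and 1.40 FPKM in control and at 0.0721, 0.0690 and 0.0874 in shSETD2 libraries (log2 fold change -1.33). The ratio of its means was 22.6, above that of HOXA9 (11.5), and with a pseudocount of 0.01 its log2 fold change was -4.32 against -3.51 for HOXA9. Its neighbour HOXA3 fell by 1.03 on the log2 scale, and the central gene HOXA7 by 0.84. HOXA4 did not pass the threshold. Its control libraries (2.56, 2.23 and 1.25 FPKM) overlapped with the shSETD2 libraries (1.10, 1.48 and 1.29), and without control library 3, the lowest control library, its log2 fold change was -0.57 and passed (limma adjusted p = 0.0033). Of the HOXA4 exon bases 31.3% are shared on the same strand with another gene model.

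The HOXB cluster (chr17:46618256-46806540, minus strand) kept more of its expression but changed its leading gene. Its 9 genes summed to 88.6 ± 2.33 FPKM in control and 33.8 ± 2.93 in shSETD2 libraries (SD, n = 3 each), a ratio of 2.62. HOXB9, a posterior gene of the thoracic region, had the highest FPKM of all 39 genes. It was at 51.2, 49.7 and 49.8 FPKM in control and at 1.32, 1.46 and 1.25 in shSETD2 libraries, where its share of the cluster's FPKM was 3.997% against 56.7%. The log2 fold change was -4.45 with an SE of 0.05 (limma adjusted p = 1.47e-08). In GENCODE 44 no other gene model shares the exon bases of HOXB9, but its locus there differs from the deposited one.

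HOXB2, a hindbrain segment gene at the other end, went the opposite way. It rose from 3.68, 2.61 and 3.06 FPKM to 12.9, 12.0 and 15.2, so every shSETD2 library was above every control library. The log2 fold change of 1.80 had an SE of 0.12 (limma adjusted p = 1.69e-05). The share of HOXB2 in the cluster was 3.51% in control and 39.4% in shSETD2 libraries, and it was the one HOX gene with a mean above 10 FPKM in the latter.

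HOXB7, a gene widely expressed in carcinomas, was also higher. Its FPKM was 6.47, 7.57 and 6.16 in control and 8.32, 9.73 and 10.6 in shSETD2 libraries, without overlap. It rose by 0.45 on the log2 scale, with an SE of 0.10 (limma adjusted p = 0.00715). It lies between HOXB6 and HOXB8, both of which fell. HOXB8 went from 6.46, 5.70 and 5.62 FPKM to 0.219, 0.125 and 0.365, with a log2 fold change of -2.49 and an SE of 0.09 (limma adjusted p = 1.11e-06). HOXB6 went from 6.52, 6.91 and 7.38 FPKM to 1.70, 1.33 and 1.36, with a log2 fold change of -1.69 and an SE of 0.08 (limma adjusted p = 3.17e-06). The deposited locus of HOXB7 (chr17:46684589-46710934) spans HOXB8 and HOXB9. In GENCODE 44 none of its exon bases are shared with either, but its locus there differs from the deposited one. Whether the HOXB7 model that was counted overlaps these genes is therefore not known. HOXB6 shares 16.6% of its exon bases with HOXB3.

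HOXB13, a prostate and tail-end gene set apart from the rest of the cluster, fell from 5.04, 5.04 and 4.18 FPKM to 1.19, 0.858 and 1.14, with a log2 fold change of -1.48 and an SE of 0.10 (limma adjusted p = 1.42e-05). HOXB5 fell from a mean of 4.15 ± 0.377 to 1.03 ± 0.0528 FPKM (log2 fold change -1.34). HOXB3 fell by 0.51 on the log2 scale, a call that was lost under quantile normalization (-0.22) and median ratio scaling (-0.24). HOXB4, a gene of blood stem cells, had overlapping libraries with means of 2.95 ± 0.164 and 3.44 ± 0.793 FPKM, and its difference of 0.15 on the log2 scale missed the threshold, although 0.42 under median ratio scaling passed (limma adjusted p = 0.0256).

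The HOXC cluster (chr12:54332549-54449814, plus strand) changed least in sum. Its 11 genes, 2 antisense transcripts included, summed to 33.5 ± 0.118 FPKM in control and 17.3 ± 1.47 in shSETD2 libraries (SD, n = 3 each), a ratio of 1.93. HOXC4, the 3′-most listed gene of the cluster, led in the control libraries with 6.57, 6.67 and 6.90 FPKM and had 0.810, 0.811 and 0.691 in the shSETD2 libraries. It fell by 2.12 on the log2 scale, with an SE of 0.06 (limma adjusted p = 2.67e-07), in contrast to the anterior genes HOXB4 and HOXD4 of the same paralog group.

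HOXC9 took the leading place in the shSETD2 libraries without a clear separation of the groups. Its FPKM was 6.27, 4.86 and 4.99 in control and 7.45, 6.24 and 6.87 in shSETD2 libraries, so shSETD2 library 2 lay just below control library 1. The log2 fold change of 0.31 with an SE of 0.10 passed the threshold (limma adjusted p = 0.0321). It did not when control library 2 or 3 or shSETD2 library 1 or 3 was left out (limma adjusted p from 0.0768 to 0.0993). The antisense transcript HOXC-AS2, which overlaps the start of HOXC9 on the other strand, was at 0.628, 0.596 and 0.328 FPKM in control and at 1.71, 1.03 and 1.3 in shSETD2 libraries. The groups did not overlap, and its log2 fold change was 0.62 (limma adjusted p = 0.00462). In the annotation 9.78% of HOXC9 exon bases lie opposite this transcript, so the levels of these genes may not be separate measurements.

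The 5′ end of the HOXC cluster fell. HOXC11 was at 2.61, 2.87 and 2.37 FPKM in control and listed at 0 in all shSETD2 libraries. The change was -1.85 on the log2 scale with an SE of 0.07 (limma adjusted p = 1.05e-06). HOXC13, a hair and nail gene, fell from 3.69, 3.66 and 3.69 FPKM to 0.709, 0.408 and 0.684, with a log2 fold change of -1.55 and an SE of 0.09 (limma adjusted p = 7.04e-06). HOXC10 fell from 4.70, 5.01 and 6.0 FPKM to 2.25, 2.19 and 2.35, with a log2 fold change of -0.93 and an SE of 0.09 (limma adjusted p = 8.1e-05). HOXC12 did not reach the filter and was at 0.492, 0.493 and 0.618 FPKM in control and listed at 0 in the shSETD2 libraries. The antisense transcript HOXC-AS3 was at 0.105 FPKM or less in every library.

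In the middle of the cluster the genes did not move as one. HOXC6 fell from 3.52, 3.59 and 3.64 FPKM to 1.16, 0.982 and 1.29, with a log2 fold change of -1.10 and an SE of 0.07 (limma adjusted p = 1.24e-05). HOXC8, next to it, had 3.8, 4.06 and 4.16 FPKM in control and 4.0, 3.72 and 4.02 in shSETD2 libraries. These groups overlapped, and the difference of -0.03 on the log2 scale missed the threshold. It turned to 0.26 under median ratio scaling and to 0.21 under quantile normalization, which both passed, and to 0.00 without shSETD2 library 2. HOXC5 was lower by 0.58 on the log2 scale (limma adjusted p = 0.0217), but not when control library 1 or 2 or shSETD2 library 2 or 3 was left out (limma adjusted p from 0.0601 to 0.0679), nor under quantile normalization (-0.13) or median ratio scaling (-0.44). It shares 67.3% of its exon bases on the same strand with other gene models, and HOXC4 and HOXC6 share exon bases with each other.

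The HOXD cluster (chr2:176957619-177055635, plus strand) was the one in which the changes followed the paralog number most closely by rank. The control levels of its tested genes followed it closely too (rho 0.93). Its 8 listed genes summed to 65.1 ± 1.21 FPKM in control and 14.9 ± 0.617 in shSETD2 libraries (SD, n = 3 each), a ratio of 4.37. HOXD13, the last gene of the cluster and a gene of the digits and genital tract, was at 24.7, 25.1 and 24.7 FPKM in control and was listed at 0 in all 3 shSETD2 libraries. It made up 38.2% of the cluster's FPKM in control. The log2 fold change was -4.69 with an SE of 0.05 (limma adjusted p = 8.57e-09), a size that depends on the pseudocount because the gene is listed at 0.

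The neighbours of HOXD13 fell less and stayed detectable. HOXD10 fell from 15.1, 15.2 and 14.3 FPKM to 2.85, 2.71 and 2.70, with a log2 fold change of -2.08 and an SE of 0.05 (limma adjusted p = 1.58e-07). HOXD11 fell from 13.1, 12.4 and 13.1 FPKM to 3.69, 3.94 and 3.21, with a log2 fold change of -1.59 and an SE of 0.07 (limma adjusted p = 2.45e-06). The annotated exons of HOXD10 and HOXD11 share 452 bases on the same strand, 18.2% and 21.4% of their exon bases. HOXD9 had the highest level of the cluster in the shSETD2 libraries, at 3.79, 3.67 and 4.01 FPKM against 6.70, 8.01 and 6.62 in control, with a log2 fold change of -0.75 and an SE of 0.08 (limma adjusted p = 0.00016). Its level there was close to that of HOXD11, whose libraries overlapped with it.

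HOXD8 fell from 2.53, 2.27 and 1.44 FPKM to 0.697, 0.590 and 1.14, with a log2 fold change of -0.76 and an SE of 0.17 (limma adjusted p = 0.00639). This call was lost under quantile normalization (-0.34). The anterior genes HOXD3 and HOXD4 did not pass the threshold, with log2 fold changes of -0.37 and 0.28. HOXD4 was at 2.61, 1.86 and 2.28 FPKM in control and at 2.91, 2.56 and 3.36 in shSETD2 libraries, and it passed as higher without control library 1 (limma adjusted p = 0.0345), without shSETD2 library 2 (limma adjusted p = 0.043), and under median ratio scaling (0.53). HOXD1 was under the filter, at 0.317, 0.234 and 0.143 FPKM in control and 0.425, 0.546 and 0.635 in shSETD2 libraries, with no overlap. Of its exon bases 60.1% lie opposite other genes.

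Paralogs of one number moved together in some groups and not in others. In group 2, HOXA2 fell by 1.33 while HOXB2 rose by 1.80 on the log2 scale. In group 7, HOXA7 fell by 0.84 and HOXB7 rose by 0.45, so that the group's summed FPKM was 9.95 ± 0.706 in control and 10.9 ± 1.09 in shSETD2 libraries (SD, n = 3 each). In group 9, HOXA9, HOXB9 and HOXD9 fell, and HOXC9 did not. The group's sum nevertheless went from 77.3 ± 2.69 to 13.3 ± 0.564 FPKM. The 4 genes of group 13 all fell, with sums of 38.8 ± 1.04 and 1.77 ± 0.367 FPKM, a ratio of 22.0. Of that control sum 24.8 FPKM came from HOXD13, listed at 0 in the shSETD2 libraries. The 3 genes of group 5 all fell too, with a ratio of 9.67. All 3 genes fell in groups 6, 10 and 11 as well, with ratios of 7.55, 4.98 and 7.21. Of all genes tested 51.8% were lower, and a paralog group holds few genes. That all genes of a group fell does not by itself set the group apart.

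In the values as deposited, the TALE partners of HOX proteins were lower or did not pass the threshold. All 9 genes of the PBX, MEIS and PKNOX families were listed and tested, of which limma called 6 lower and 0 higher, with a median log2 fold change of -0.52, beside 51.8% lower, 26.8% higher and a median of -0.29 over all genes tested. With 9 genes, a count of 6 lower lies near that share. At an unadjusted p under 0.05, and in a linear model per gene without moderation, 0 were higher too. Under quantile normalization and median ratio scaling, however, MEIS2 and PBX3 were called higher. PBX3 was also called higher without shSETD2 library 3 (0.41, limma adjusted p = 0.0137) and with a replicate block (limma adjusted p = 0.0143). PKNOX2 was at 3.87, 3.35 and 3.17 FPKM in control and listed at 0 in all shSETD2 libraries. The change was -2.16 on the log2 scale with an SE of 0.07 (limma adjusted p = 7.27e-07). MEIS1 fell from 2.44, 2.37 and 2.34 FPKM to 0.753, 0.721 and 0.804, with a log2 fold change of -0.94 and an SE of 0.05 (limma adjusted p = 6.84e-06). In both of these genes the groups were apart. PBX2, MEIS3 and PKNOX1 also fell, by 0.64, 0.52 and 0.46 on the log2 scale. PBX2 stayed the most abundant partner, at 17.5 ± 0.252 and 10.9 ± 0.521 FPKM (SD, n = 3 each). PBX3, PBX4 and MEIS2 did not pass the threshold, with log2 fold changes of 0.29, -0.25 and -0.03.

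Of 5 genes that regulate HOX clusters 3 are listed. CDX2, a homeodomain factor of the hindgut that acts on HOX genes, was at 7.13, 6.63 and 6.12 FPKM in control and listed at 0 in all shSETD2 libraries. Its part in the HOX differences was not tested. The change of CDX2 was -2.93 on the log2 scale with an SE of 0.07 (limma adjusted p = 1.4e-07). KMT2A, the H3K4 methyltransferase that maintains HOX expression, had overlapping libraries, at 14.6 ± 0.810 and 13.8 ± 0.274 FPKM, and its difference of -0.07 on the log2 scale missed the threshold, although it was called higher under median ratio scaling. Its partner MEN1 fell from 14.5 ± 0.964 to 9.86 ± 0.356 FPKM, a log2 fold change of -0.52 (limma adjusted p = 0.000253).

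**Figure D5:**
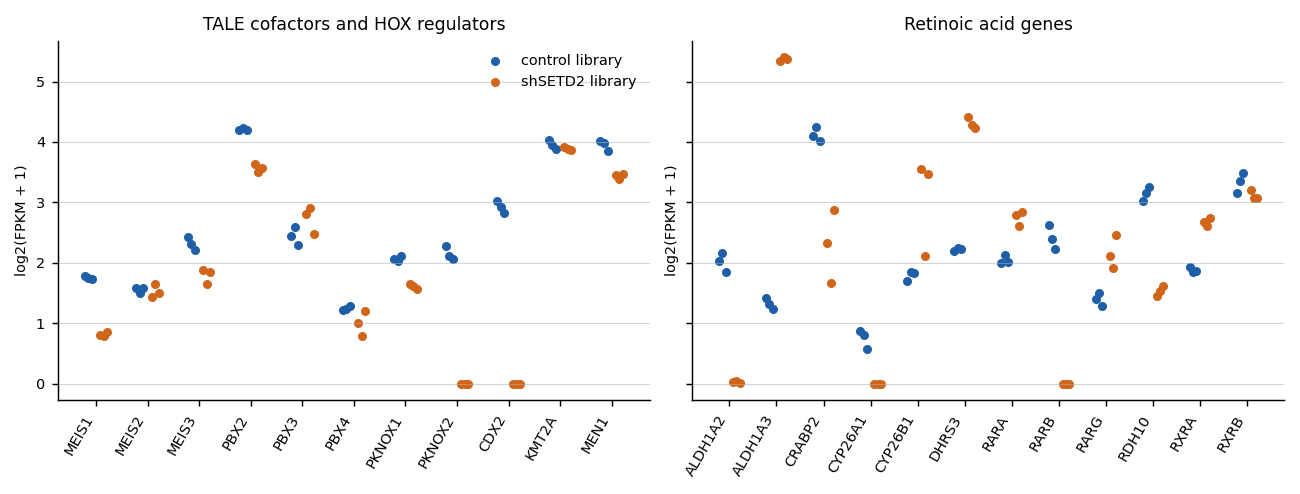
Points give log2(FPKM + 1) in each library (blue, control; orange, shSETD2) for named TALE partners and HOX regulators at left and for named genes of retinoic acid signalling at right. PKNOX2, CDX2, RARB and CYP26A1 lie at 0 in the shSETD2 libraries, and ALDH1A3 and DHRS3 lie far above the control libraries.

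Retinoic acid is a vitamin A derivative that switches on 3′ HOX genes through RAR and RXR receptors. Of 18 genes of its synthesis, binding, breakdown and reception, 13 are listed and 12 passed the filter. In the shSETD2 libraries 6 of them rose and 5 fell, with a median log2 fold change of 0.24, beside 26.8% higher and 51.8% lower of all genes tested. ALDH1A3, which makes retinoic acid from retinal, rose from 1.68, 1.51 and 1.35 FPKM to 39.6, 41.4 and 40.5, with a log2 fold change of 4.05 and an SE of 0.06 (limma adjusted p = 3.77e-08). ALDH1A2, which catalyses the same step, went the other way, from 3.06 ± 0.425 to 0.0237 ± 0.0127 FPKM (SD, n = 3 each). RARB, a receptor, was at 5.21, 4.25 and 3.71 FPKM in control and listed at 0 in the shSETD2 libraries. The change was -2.42 on the log2 scale with an SE of 0.11 (limma adjusted p = 2.24e-06). DHRS3, which turns retinal back into retinol, rose from 3.59, 3.74 and 3.67 FPKM to 20.3, 18.5 and 17.9, with a log2 fold change of 2.09 and an SE of 0.06 (limma adjusted p = 3.47e-07). The receptors RARA, RARG and RXRA rose by 0.70, 0.77 and 0.79 on the log2 scale, and RXRB did not pass the threshold. CYP26B1, which breaks retinoic acid down, rose by 1.25, with shSETD2 libraries at 10.7, 3.35 and 10.1 FPKM. This call was lost without any 1 library other than shSETD2 library 2 (1.00 to 1.28, limma adjusted p from 0.0511 to 0.0647) and in a linear model without moderation. RDH10 and CRABP2 fell by 1.61 and 1.83.

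Genes around the clusters were examined by position. Within 300 kb of the outermost HOX genes, or inside the clusters, 27 other genes are listed, and 22 were tested. Of the 15 tested outside the clusters limma called 11 lower and 0 higher (0 also at an unadjusted p under 0.05 and without moderation), with a median log2 fold change of -0.41, beside 51.8% lower, 26.8% higher and a median of -0.29 over all genes tested. Without control library 1 UBE2Z was called higher (0.92, limma adjusted p = 0.0133). Median ratio scaling gave 6 lower and 2 higher (SKAP2 and UBE2Z) outside the clusters, and quantile normalization 9 lower and 1 higher (SMUG1). Of the 7 tested inside, 5 were lower and 1 higher, with a median of -1.22. The non-coding RNA LINC02381, on the 3′ side of the HOXC cluster, fell from 7.20, 7.16 and 7.87 FPKM to 0.193, 0.276 and 0.30, with a log2 fold change of -2.74 and an SE of 0.06 (limma adjusted p = 1.69e-07). Inside the HOXA cluster, AC004080.3 (6.50, 3.38 and 3.82 FPKM in control) and AC004080.5 (7.52, 4.35 and 1.97) were listed at 0 in all shSETD2 libraries, with log2 fold changes of -2.44 (SE 0.20, limma adjusted p = 4.11e-05) and -2.36 (SE 0.36, limma adjusted p = 0.000886). Both models share exons with HOXA genes, so they are not independent of them.

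Other neighbours fell, rose or had overlapping libraries. IGF2BP1, an mRNA-binding protein of fetal tissue 268234 bases beyond HOXB13, fell from 53.7, 55.3 and 53.6 FPKM to 11.4, 11.7 and 11.0, with a log2 fold change of -2.16. Within the HOXB cluster, AC103702.2, a non-coding RNA between HOXB9 and HOXB13, rose from 2.39 ± 0.226 to 4.43 ± 0.416 FPKM, a log2 fold change of 0.68 (limma adjusted p = 0.000279). It was the only tested neighbour called higher in the values as deposited, and it and IGF2BP1 were singled out after their values were seen. SKAP2, beside the 3′ end of the HOXA cluster, had overlapping libraries at 8.58 ± 0.253 and 8.44 ± 0.305 FPKM and a log2 fold change of -0.02. MTX2, beside the 3′ end of the HOXD cluster, overlapped too, at 16.1 ± 2.36 and 12.9 ± 1.77 FPKM (SD, n = 3 each).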

How the data were processed

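RNA-seq was made from total RNA of H1650 cells with a stranded library kit, per the labels. Per the study's methods, the authors aligned reads with Hisat2 against hg19, which is GRCh37, estimated expression in Ballgown, and deposited the FPKM of each gene in 3 control and 3 shSETD2 libraries. Tool versions, whether counting used strand, and how the genes in the table were selected are not given in the sources used here. The table lists 15897 genes. A second deposited table repeats these FPKM values and adds the authors' own comparison (fold changes, p-values and q-values), which was not used. Read depth is unknown, since it could not be recovered from FPKM, so the spread between 3 libraries is the only measure of precision. FPKM summed to 218769 to 224603 per library, and 602 to 653 genes were listed at 0 in a control and 1189 to 1227 in a shSETD2 library. A value of 0 can be a failed estimate, so it is described as listed at 0. No ratio is given for such a gene, and its log2 fold change depends on the pseudocount. Ratios of sums do include such genes, HOXD13, HOXC11 and HOXC12 among them.

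The 14068 genes whose FPKM averaged 0.5 or more were tested on log2(FPKM + 1), with a pseudocount of 1, in R 4.3.3 with limma 3.58.1 (lmFit, then eBayes with trend), and p-values were adjusted by Benjamini-Hochberg over all genes tested, with a threshold of 0.05. The fit was tested on simulated data. Alternatives were other pseudocounts, filters, scalings and variance models, a replicate block and leaving out each library. HOX genes were all rows whose symbol begins with HOXA to HOXD. In each cluster the 5 genes past the threshold with the largest change and the highest of each group got full statistics, as did the 3 with the largest change in each list of partners, neighbours and retinoic acid genes. HOXB7, HOXC-AS2 and others outside this rule were named after their values were seen. The members and lists were chosen with earlier results of these data known. Exon overlaps and promoter windows come from GENCODE 44 lifted to GRCh37, and chromosome positions of genes from the deposited table. The loci of many HOX genes differ between the 2 sources, so exon overlaps in the models that were counted are not known. Python 3.11.15 (pandas 2.3.3, numpy 2.4.6, matplotlib 3.10.9) was used for tables and plots. Some genes and sequences that these rules cover are not reported here.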

Additional observations from a re-analysis of the deposited data

How the results depend on the processing

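Of the HOX genes called, 26 of the 27 lower and 3 of the 4 higher passed the threshold in the same direction whichever library was left out (HOXC5 and HOXC9 did not), and 23 of the 27 and 4 of 4 under all 3 scalings (the exceptions include HOXB3, HOXC5 and HOXD8). Quantile normalization and median ratio scaling each gave 7 higher HOX genes in place of 4, adding HOXB4, HOXC8 and HOXD4. HOXC8 reversed from -0.03 to 0.21 and 0.26 under these scalings, and leaving out 1 library gave it values from -0.057 to 0.0023, the latter without shSETD2 library 2. The cause was not tested. Under quantile normalization HOXA4 (0.016) and HOXD3 (0.11) reversed, none of which passed with all libraries as deposited. A filter at a mean FPKM of 5 tests fewer genes, and left 9 lower HOX genes, 2 of 8 called partners and regulators, 9 of 17 neighbours and 4 of 11 retinoic acid genes, with 2401 higher and 3246 lower genes over all in place of 3774 and 7283. Leaving out 1 library moved the log2 fold change of SETD2 between -0.83 and -0.45, and it was -0.25 under median ratio scaling. With a replicate block SETD2 kept its log2 fold change of -0.58 and passed the threshold (limma adjusted p = 0.0157), and the block gave 27 lower and 5 higher HOX genes, adding HOXD4. The replicate numbers did not pair the libraries: deviations of same-numbered libraries correlated at -0.02, 0.02 and -0.01, and not every library correlated best with its own number. The unknown read depth limits genes under 1 FPKM, and with 3 libraries per group only their own spread is measured.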
